A study of Mus musculus with 12 samples.

Results

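H3K14ac ChIP-seq from Hbo1 null neural stem and progenitor cells (NSPCs) was compared with the same ChIP from wild-type (WT) cells, with input chromatin and with IgG pull-downs. The 2 Hbo1 null libraries of the 12 in the series, 1 from proliferating and 1 from differentiating cells, were set against 6 WT libraries, 3 per stage, and 1 input and 1 IgG library per stage. The null libraries were shallow, with 64071 and 320601 counts over gene bodies in proliferating and differentiating cells, so windows at transcription start sites (TSSs) were pooled before they were compared. In the windows where WT cells carried most H3K14ac the null signal per gene body count was lower than WT in both stages, and the test found no difference from IgG. Scaled to window totals instead, 2 of 10 groups of windows were lower over both stages and none within a stage. The null-WT gap in these windows was larger once the mitochondrial genome was left out. In differentiating cells it did not pass the test when 50 gene bodies that took many of the null counts were left out, unless only autosomal genes were used. The contrast between windows of high and low WT signal lay above that of IgG in proliferating null cells. With autosomal genes its interval covered the IgG value.

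Acetylation of lysine 14 of histone H3 (H3K14ac) is laid down by histone acetyltransferases and is found mostly around the TSSs of active genes. HBO1, encoded by Kat7, is the acetyltransferase of a complex whose other subunits include a BRPF or JADE scaffold, ING4 or ING5, and MEAF6, and it acetylates H3K14 in many cell types. Cells without HBO1 therefore serve as a negative control for a ChIP against this mark, a use that the series' own design text gives them.

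All libraries came from NSPCs of the cortex and ganglionic eminences of embryos at E14.5. Proliferating cells were grown as neurospheres, and differentiating cells were taken from neurospheres and kept on a laminin surface in cortical neuron medium. The Hbo1 null libraries carry the genotype label Hbo1 null, the 6 WT and the 2 input libraries carry the label WT, and the IgG libraries carry no genotype label. The descriptions tie each input library to WT replicate 1 of its stage. Which part of Kat7 was deleted, and how, is not given in the sources used here. The labels name the H3K14ac antibody (Abcam ab52946) for every library, the input and IgG libraries included. With 1 null library per stage there is no replicate of a null condition, and the labels do not say which of the 4 WT foetuses named in the design, or which culture, a WT replicate number stands for. The p-values below therefore measure the spread between WT libraries, which may be technical, and assume that the single null, input and IgG libraries vary like them. For the bins described below, that spread is also shared between bins of the same libraries. Such bins are not independent, so the p-values of bins may be too small. The signal is given per gene body total of the same library, so a loss that touched windows and gene bodies alike would not be seen, and fewer cells with the mark cannot be told apart from less of it per cell.

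The 27095 gene IDs each had a count for a TSS window of 1 kb and a count for the gene body, which includes the window. In proliferating cells the WT libraries held 3992697 to 7611239 gene body counts, input 11871306 and IgG 2526252. In differentiating cells the WT libraries held 12549913 to 17074249, input 12689734 and IgG 2771713. TSS windows held 1815 and 9381 null counts in proliferating and differentiating cells, and 94.8% and 75.8% of windows had no null count. As a share of gene body counts, windows held 2.83% in proliferating null cells, against 4.56% to 4.90% in WT, 3.36% in input and 3.34% in IgG of that stage. They held 2.93% in differentiating null cells, against 3.24% to 3.68% in WT, 3.23% in input and 2.90% in IgG. The null share lay below the 3 WT shares of its stage in both stages. Mitochondrial windows made up 16.7% and 16.2% of the null window counts, against 1.97% to 9.91% in the 6 WT libraries, 6.32% and 5.79% in input and 7.42% and 12.9% in IgG. Single-copy genes of the Y chromosome had 46.8 and 184 counts per 1000000 gene body counts (CPM) in the null libraries, 13.9 to 62.1 CPM in 5 WT libraries and 275 CPM in differentiating WT replicate 3. They had 9.94 and 12.6 CPM in the input libraries and 249 and 292 CPM in the IgG libraries. The bins are given below with and without the sex chromosomes and the mitochondrial genome; the part of the Y chromosome differences by themselves was not tested.

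Kat7 itself had 4 gene body counts (62.4 CPM, 95% Poisson interval 17.0 to 160) in proliferating and 11 (34.3 CPM, 17.1 to 61.4) in differentiating null cells, against 26.9 to 32.8 CPM in proliferating and 32.2 to 37.9 CPM in differentiating WT cells. The null intervals covered the WT values in both stages. The Kat7 window had no null count in either stage and 10 to 23 counts in the WT libraries. These counts do not check the genotype, since the deleted part is not known and at most 11 counts fell on the gene.

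H3K14ac in WT cells was compared over windows that run from low to high signal. Promoters of 4 windows with high or low signal are printed so that their base composition can be seen. They are RefSeq sequences (GRCm38.p6) from 250 bases before to 50 bases after the annotated start, 5′ to 3′ on the gene's strand, with each CG in capitals. Zmynd11 (chr13:9765272-9765571, minus strand) encodes a reader of histone methylation and Abhd17b (chr19:21653059-21653358, plus strand) a depalmitoylating enzyme. Their windows ranked highest by the smaller of both stages' WT signal over input, among 204 windows with a symbol and at least 100 counts in each stage. In proliferating cells alone other windows were higher, such as Tnrc18 at 7.60 times input, against 4.74 at Zmynd11 and 6.85 at Abhd17b.
Zmynd11: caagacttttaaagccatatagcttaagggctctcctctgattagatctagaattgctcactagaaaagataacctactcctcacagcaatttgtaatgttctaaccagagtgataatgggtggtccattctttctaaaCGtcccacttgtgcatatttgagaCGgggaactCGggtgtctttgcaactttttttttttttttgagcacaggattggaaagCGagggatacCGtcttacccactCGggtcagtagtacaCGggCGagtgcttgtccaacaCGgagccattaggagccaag
Abhd17b: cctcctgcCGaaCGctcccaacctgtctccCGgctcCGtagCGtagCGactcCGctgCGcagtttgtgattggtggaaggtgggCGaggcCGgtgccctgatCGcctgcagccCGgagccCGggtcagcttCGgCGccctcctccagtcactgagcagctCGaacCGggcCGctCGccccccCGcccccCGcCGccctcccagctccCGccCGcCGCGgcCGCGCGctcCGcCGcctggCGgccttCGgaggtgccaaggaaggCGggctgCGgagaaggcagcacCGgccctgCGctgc
Ugt1a1 (chr1:88211709-88212008, plus strand) encodes a liver enzyme that conjugates bilirubin and Zfp979 (chr4:147642459-147642758, minus strand) a zinc finger protein. With the same filters their windows were among the 10 lowest by the larger of both stages' WT signal over input. Ugt1a1 was at 0.603 and 0.660 and Zfp979 at 0.643 and 0.759 times input in proliferating and differentiating cells. In the bins described below Zfp979 fell in bin 3 for proliferating and bin 2 for differentiating cells, so it was not at the low end of all windows.
Ugt1a1: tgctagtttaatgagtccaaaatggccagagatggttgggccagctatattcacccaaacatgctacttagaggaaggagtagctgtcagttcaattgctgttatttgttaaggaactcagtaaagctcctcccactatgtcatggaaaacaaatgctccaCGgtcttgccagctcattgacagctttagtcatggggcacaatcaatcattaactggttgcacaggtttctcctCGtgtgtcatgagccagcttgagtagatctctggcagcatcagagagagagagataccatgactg
Zfp979: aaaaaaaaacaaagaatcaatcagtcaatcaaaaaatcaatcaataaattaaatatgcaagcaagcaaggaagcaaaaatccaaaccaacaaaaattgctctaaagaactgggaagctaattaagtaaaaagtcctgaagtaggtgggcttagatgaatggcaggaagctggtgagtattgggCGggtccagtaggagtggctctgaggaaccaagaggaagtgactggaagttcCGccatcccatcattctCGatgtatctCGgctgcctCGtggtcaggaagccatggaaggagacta
The Zmynd11 sequence, from the most upstream of 4 listed starts, held 9 CG dinucleotides, a number that 58.7% of all promoters in the table reached, and the Abhd17b sequence held 37, which 6.90% reached. The Ugt1a1 sequence held 2 and the Zfp979 sequence 5, which 88.0% and 71.0% of promoters reached. Of the sequences printed that of Abhd17b alone was rich in CG. The Zmynd11 gene is annotated up to base 9766014, upstream of the printed sequence on the minus strand. That sequence therefore need not belong to the start at which the Zmynd11 window was counted.

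For each stage, windows were ranked by WT signal over input in the other stage and divided into 10 bins of equal size, so that the ranking shared no library with the values read. The ranking covered 26667 windows for proliferating and 25993 for differentiating cells, and the top bins of the rankings shared 862 windows, 32.3% of the proliferating and 33.2% of the differentiating bin. The median promoter in the proliferating bins had 6 CG dinucleotides in the bottom bin and 19 in the top bin, and in the differentiating bins 5 and 25. In the top bin of proliferating cells the null library had 210 counts, or 1.22 times input (95% Poisson interval 1.06 to 1.39), against 2.06, 2.71 and 2.51 times input in the WT libraries (2.43 ± 0.332, SD, n = 3) and 1.23 times in IgG. In the top bin of differentiating cells the null library had 862 counts, or 0.992 times input (0.927 to 1.06), against 1.80, 1.36 and 1.56 times in the WT libraries (1.57 ± 0.223, SD, n = 3) and 0.982 times in IgG. In both stages the null value lay below all 3 WT values and next to the IgG value. In the bottom bin the null library was at 0.668 times input (0.560 to 0.790; 136 counts) in proliferating cells, against 0.956, 0.785 and 0.833 times in WT and 0.890 times in IgG. In differentiating cells the bottom bin was at 0.751 times input (0.699 to 0.806; 767 counts) in null cells, against 0.829, 0.794 and 0.733 times in WT and 0.720 times in IgG, so that the groups overlapped. The intervals cover counting error only.

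**Figure D1:**
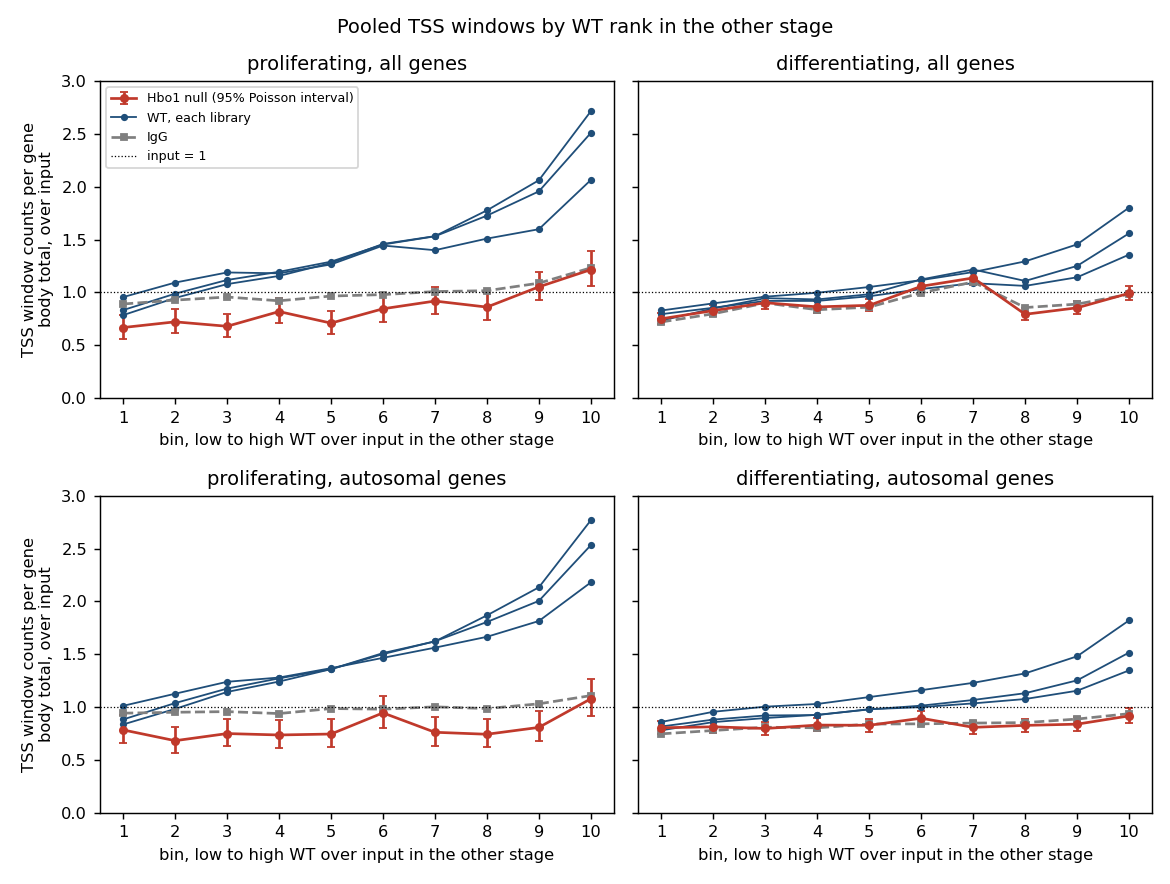
TSS window counts per gene body total, divided by input of the same stage (y axis), in 10 bins of windows ranked by WT over input in the other stage (x axis, low to high), for all genes (top) and autosomal genes (bottom); red points are the Hbo1 null library with 95% Poisson intervals, blue lines the 3 WT libraries, grey squares IgG and the dotted line input. In the top bin of all genes the null library stands at 1.22 (proliferating) and 0.992 (differentiating), below the WT lines that end between 2.06 and 2.71 and between 1.36 and 1.80.

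Across both stages, 9 of the 10 bins had less null than WT signal by edgeR's quasi-likelihood test with Benjamini-Hochberg adjustment over the bins, at a threshold of 0.05. The null minus WT difference was -0.83 on the log2 scale in the top bin (SE 0.151, edgeR adjusted p = 0.00117) and -0.21 in the bottom bin (SE 0.106, adjusted p = 0.0789). In proliferating cells 9 bins were lower, with -0.999 in the top bin (SE 0.229, adjusted p = 0.00345). In differentiating cells 3 bins were lower, the top 3, with -0.54, -0.59 and -0.67 in bins 8, 9 and 10 (edgeR adjusted p = 0.0419 for each). Against IgG no bin differed over both stages (edgeR, 0 of 10), and the top bin difference was -0.00 with a 95% interval of -0.40 to 0.40. In proliferating cells alone 2 bins, bins 3 and 5, were below IgG, and none without the 50 gene bodies described below (edgeR, 0 of 10). Against input, the bottom 5 bins were lower over both stages, and the top bin stood at 0.13 (adjusted p = 0.576). Without the 50 gene bodies no bin was below input over both stages (edgeR, 0 of 10), whereas with autosomal genes as well 7 bins were. A p that misses the threshold does not show that null and IgG were alike, since the interval allows a difference of up to 0.40 in either direction. The null-WT gap itself differed between the stages in 5 bins, bins 3 to 7, by 0.39 to 0.74 on the log2 scale, with the smaller gap in differentiating cells, but not by this test in the top bin (0.33, edgeR adjusted p = 0.325). Without differentiating WT replicate 1 the top bin difference over both stages was -0.55 (edgeR adjusted p = 0.0343). With window totals in place of gene body totals as library size, 2 bins were lower over both stages and none in either stage alone (edgeR, 0 of 10 in each). The top bin then stood at -0.33 (edgeR adjusted p = 0.0459) and the bottom bin at 0.28.

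**Figure D2:**
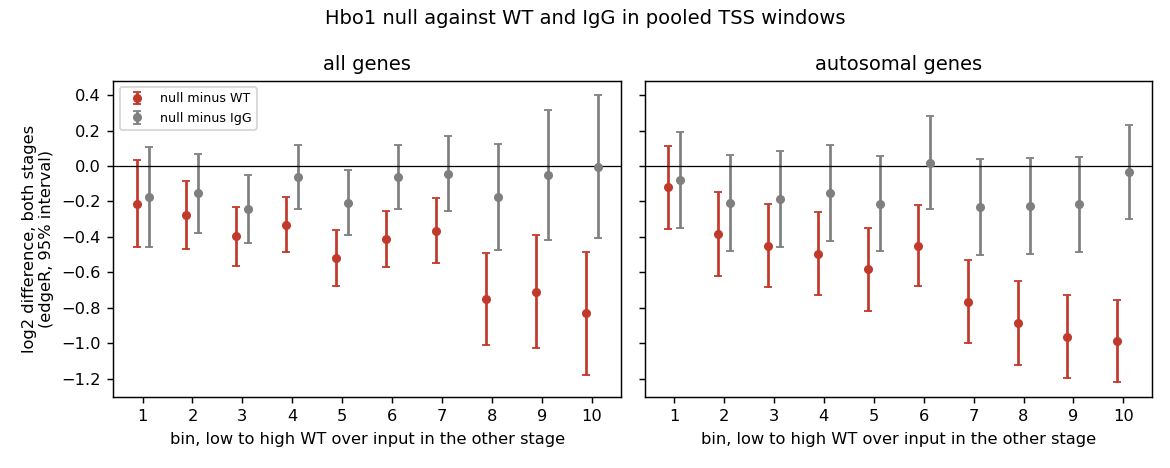
Log2 difference over both stages (y axis, edgeR estimate with 95% interval) of Hbo1 null minus WT (red) and Hbo1 null minus IgG (grey) in the 10 bins ranked by WT over input in the other stage (x axis), for all genes (left) and autosomal genes (right). The null minus WT points go down to -0.83 (all genes) and -0.99 (autosomal genes) in the top bin, where the null minus IgG points stand at -0.00 and -0.04.

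The mitochondrial genome carried 42 of the 210 null counts in the top proliferating bin and 91 of the 862 in the top differentiating bin, and 471 of 1238 in bin 7 of differentiating cells. Mitochondrial DNA carries no histones, and its windows overlap each other. Restricted to autosomal genes, the top bin of proliferating cells had 153 null counts, or 1.08 times input (0.914 to 1.26), against 2.18, 2.77 and 2.53 times in WT and 1.11 times in IgG. In differentiating cells it had 683 null counts, or 0.917 times input (0.849 to 0.988), against 1.82, 1.35 and 1.52 times in WT and 0.938 times in IgG. The autosomal null values across the 10 bins ran from 0.682 to 1.08 times input in proliferating and from 0.798 to 0.917 times in differentiating cells. The same 10 bins held means of 0.910 to 2.49 times input in proliferating and 0.819 to 1.56 times in differentiating WT cells. The p-values that follow rest on a spread shared between bins of the same libraries and may be too small. With autosomal genes 9 bins were lower in null than in WT cells over both stages, the top bin by -0.99 (SE 0.115, edgeR adjusted p = 1.27e-09), and 4 bins were lower in differentiating cells, the top bin by -0.77 (edgeR adjusted p = 5.98e-05). Against IgG no autosomal bin differed, and the top bin difference was -0.04 (interval -0.30 to 0.23).

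The contrast between the top and the bottom bin within a library needs no library size. As log2 of top over bottom bin counts it was 0.63 in proliferating and 0.17 in differentiating null cells, 0.87, 1.55 and 1.35 in proliferating WT cells and 0.89, 0.54 and 0.86 in differentiating WT cells. The input libraries stood at -0.24 and -0.23 and the IgG libraries at 0.23 and 0.21. The null score was the lowest of the 4 ChIP libraries of its stage in both stages and lay above input. It was above IgG in proliferating and just below IgG in differentiating cells. The null minus WT difference was -0.61 (exact permutation of libraries within stage, two-sided, p = 0.0625, the smallest value that 16 arrangements allow), so this design cannot reach 0.05. Without differentiating WT replicate 1 it was -0.33. Relative to input the top over bottom fold was 1.82 (1.46 to 2.28) and 1.32 (1.20 to 1.46) in null cells, 2.16 to 3.46 and 1.71 to 2.17 in WT cells, and 1.38 and 1.36 in IgG, in proliferating and differentiating cells. With autosomal genes it was 1.38 (1.08 to 1.75) and 1.14 (1.02 to 1.27) in null cells, 2.15 to 3.31 and 1.65 to 2.12 in WT cells, and 1.18 and 1.26 in IgG. A mixture of the WT and the input bin profiles matched the null profile best with a WT-like share of 60.3% (95% likelihood interval 44.1% to 76.5%) in proliferating and 33.0% (22.1% to 44.1%) in differentiating cells. With autosomal genes the shares were 30.3% (12.1% to 48.8%) and 16.4% (3.8% to 29.3%) in proliferating and differentiating cells. With IgG in place of input, over all genes, they were 44.5% (21.5% to 67.4%) and -14.7% (-28.2% to -1%). For autosomal genes against IgG they were 17.4% (-4.2% to 39.3%) and -21.2% (-39.3% to -2.6%). With 1 WT library left out the share in differentiating cells ran from -0.2% (without proliferating WT replicate 3) over 20.1% (without proliferating WT replicate 2) to 48.0% (without proliferating WT replicate 1). That in proliferating cells ran from 37.0% (without differentiating WT replicate 3) to 86.8% (68.7% to 104.7%, without differentiating WT replicate 1). The libraries named entered the ranking for the other stage.

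Ranking by a property that used no counts gave the same direction of null against WT. Windows were divided into 10 bins by the GC share of the RefSeq promoter, which was found for 18458 genes (68.1%), so the values hold for those genes and are void as a statement on all windows. In the bin of highest GC (70.7% to 89.3%) the null signal was 0.801 times input in proliferating cells, against 2.04, 2.49 and 2.22 times in WT and 1.03 times in IgG. In differentiating cells it was 0.754 times input, against 1.49, 1.12 and 1.24 times in WT and 0.811 times in IgG. The null minus WT difference over both stages was -1.13 in this bin (SE 0.160, edgeR adjusted p = 0.000436) and -0.04 in the bin of lowest GC (12.3% to 40.3%, adjusted p = 0.541), and 9 of the 10 bins were lower. The bin of lowest GC was at 1.20 times input (1.01 to 1.41) in proliferating null cells, against 1.12, 1.17 and 1.13 times in WT. No mitochondrial window entered these bins. Over both stages 7 of the 10 GC bins were also lower in null cells than in input, and 0 differed from IgG (edgeR). In GC bin 6 of proliferating cells the null signal was 0.554 times input (0.440 to 0.687), against 0.978 times in IgG. Whether the GC share by itself moved the counts of the shallow null libraries was not tested.

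**Figure D3:**
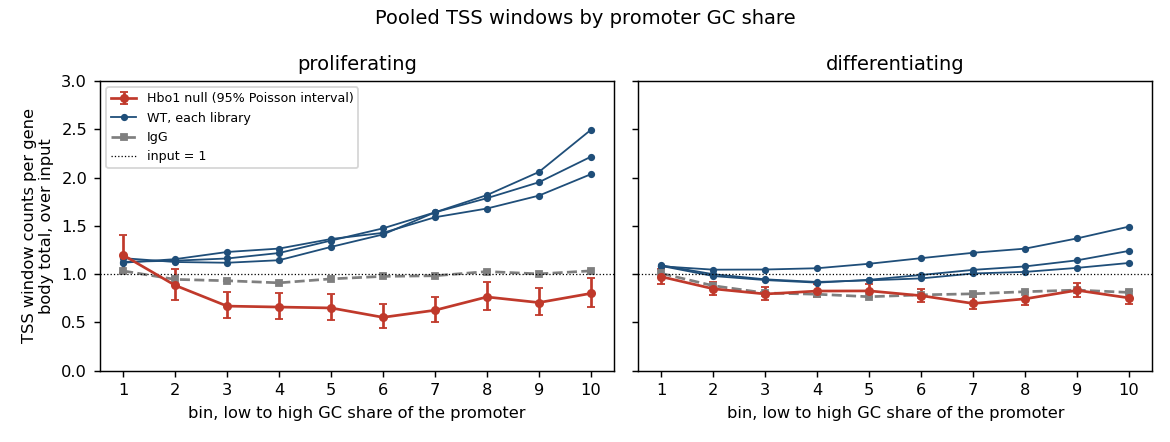
TSS window counts per gene body total over input (y axis) in 10 bins of windows ranked by the GC share of the promoter (x axis, low to high), in proliferating (left) and differentiating (right) cells; red points are the Hbo1 null library with 95% Poisson intervals, blue lines the 3 WT libraries, grey squares IgG and the dotted line input. In the bin of highest GC the null library stands at 0.801 and 0.754, and the WT lines between 2.04 and 2.49 and between 1.12 and 1.49.

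Next, 10 windows were taken that ranked highest by the smaller of both stages' WT signal over input. Each had a symbol and at least 100 counts in each stage. They included those of Zmynd11, Abhd17b, Chaserr (a long non-coding RNA next to Chd2) and Nfib (a transcription factor of neural and glial differentiation). Brd2 (a reader of acetylated histones), AW047730, Apc (a negative regulator of Wnt signalling), Tnrc18 and Ino80d (a chromatin remodelling subunit) were others. The windows were chosen by the same WT and input libraries, which favours high WT over input values, so the comparison is a description. In proliferating null cells 9 of the 10 had no count and in differentiating null cells 8, and none had more than 1. Summed, the 10 windows had 1 and 2 null counts in proliferating and differentiating cells, where 4.44 and 9.49 were expected at the WT rate. That was 1.36 (0.0345 to 7.59) and 0.842 (0.102 to 3.04) times input, against 4.88, 6.84 and 6.33 times in proliferating and 4.98, 2.96 and 4.05 times in differentiating WT cells, and 1.07 and 1.46 times in IgG. The differentiating null interval ended just above the lowest WT value of its stage, and the proliferating interval covered all 3 WT values, so the depth allowed no statement on single windows.

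In the same way 19 gene lists were summed, the single-copy Y genes aside. The null interval lay below the WT mean for 3 lists in each stage and above it for the mitochondrial genome in both. Over all windows the null share of gene body counts was also below WT. It was 2.83% against 4.56% to 4.90% in proliferating and 2.93% against 3.24% to 3.68% in differentiating cells. Counts expected at the WT rate do not allow for that shift, so the values below do not show a loss particular to these lists. Windows of 15 immediate early genes, which are switched on at once by growth signals, had 0 null counts in proliferating cells where 4.62 were expected, that is 0 times input (upper bound 3.04), against 3.47, 4.18 and 3.77 times in WT and 1.09 times in IgG. Windows of 62 replication-dependent histone genes had 4 null counts in proliferating cells where 10.3 were expected, or 1.09 times input (0.298 to 2.80), against 2.54, 2.97 and 2.95 times in WT. Windows of 83 ribosomal protein genes had 4 null counts in proliferating and 28 in differentiating cells where 14.1 and 44.1 were expected, or 0.546 (0.149 to 1.40) and 0.763 (0.507 to 1.10) times input, against 1.86, 1.85 and 2.05 times and 1.34, 1.11 and 1.16 times in WT. In differentiating cells windows of 27 neural stem and progenitor genes, among them Nfib, Sox2 and Notch1, had 5 null counts where 15.3 were expected, or 0.547 times input (0.178 to 1.28), against 1.94, 1.38 and 1.69 times in WT and 0.835 times in IgG. Windows of 1108 olfactory receptor genes, which are read in sensory neurons of the nose, had 381 null counts in differentiating cells where 439 were expected, or 0.871 times input (0.786 to 0.963), against 1.02, 1.01 and 0.988 times in WT and 0.875 times in IgG. For each of these the null value lay below the lowest WT value of the stage, and except for the histone genes the upper bound of its interval did too. Counting point values only, 13 of the 19 lists in proliferating and 12 in differentiating cells were below all 3 WT libraries in null cells, and 13 and 15 in IgG.

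Members of the HBO1 complex list, among them Brd1, Brpf1 and Ing5, had 1 null count in each stage where 1.58 and 3.77 were expected, and the intervals covered the WT mean. The windows of 20 housekeeping genes, among them Actb and Vcp, had 0 and 5 null counts where 3.58 and 9.81 were expected. Windows of cell cycle genes had a null value above all 3 WT values in differentiating cells, with 16 null counts where 9.55 were expected, or 1.48 times input (0.848 to 2.41), against 0.947, 0.886 and 0.822 times in WT, and the interval covered the WT mean. Among markers of other cells, endothelial windows had 1 and 4 null counts where 0.842 and 3.70 were expected, and microglial windows 0 and 2 where 0.822 and 3.70 were expected. The 3 windows with most WT counts of each of 17 lists, 51 in all, were at 0 in the null library for 48 in proliferating and 33 in differentiating cells, and none exceeded 2 counts. Over all windows 94.8% and 75.8% were at 0, so these shares say nothing particular of the list windows. The mitochondrial genome had 303 and 1524 null window counts where 159 and 790 were expected, or 2.23 (1.98 to 2.49) and 2.54 (2.42 to 2.67) times input, against 0.423, 1.56 and 1.51 times and 0.898, 1.24 and 1.82 times in WT and 1.17 and 2.00 times in IgG.

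**Figure D4:**
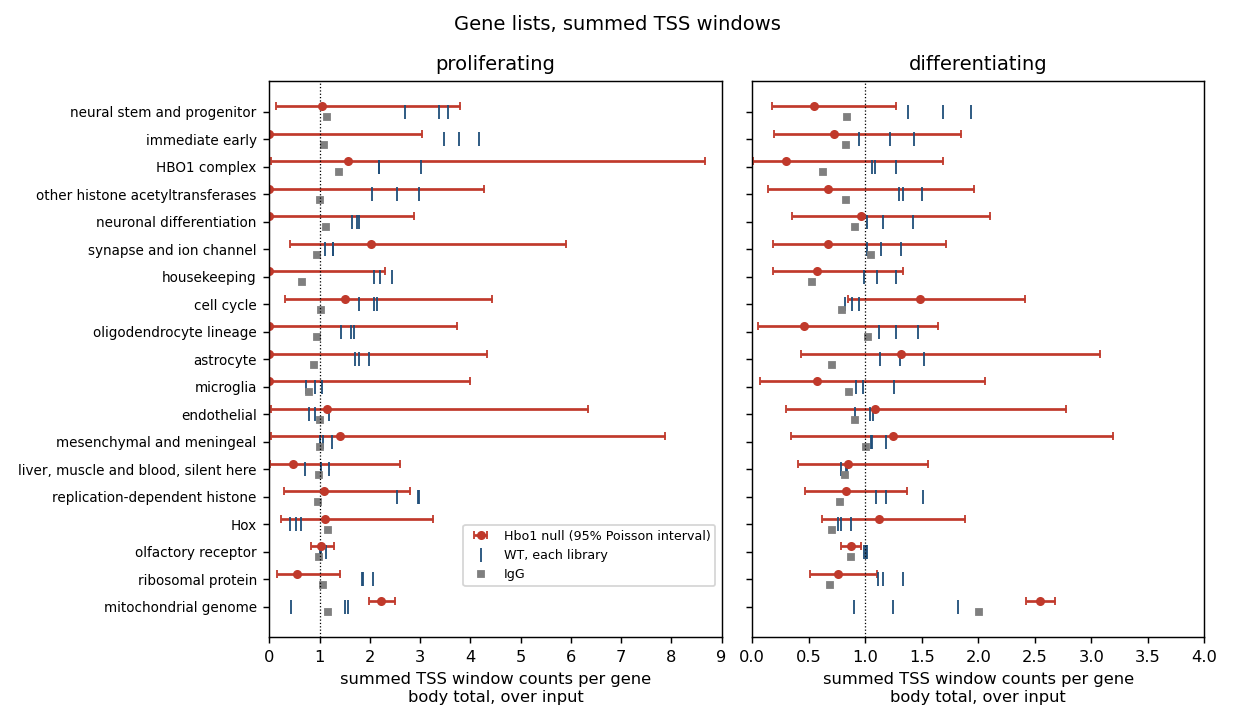
Summed TSS window counts per gene body total over input (x axis) for 19 gene lists (y axis) in proliferating (left) and differentiating (right) cells; red points are the Hbo1 null library with 95% Poisson intervals, blue ticks the 3 WT libraries and grey squares IgG, and the x axes have different ranges. The mitochondrial genome, at 2.23 and 2.54, is the one list whose null interval lies above the WT mean in both stages, and ribosomal protein genes, at 0.546 and 0.763, the one whose interval lies below it in both.

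At single windows the depth gave almost no calls. Of 10948 windows with a mean count of at least 10, edgeR called 2 higher (0.0183%) and 0 lower (0%) in null than in WT cells at an adjusted p under 0.05. DESeq2 also called 2, but of the 2457 windows that its own filter kept, and with its own scaling in place of gene body totals. At an unadjusted p under 0.05 there were 92 windows in edgeR, 3814 in edgeR with TMM and 1319 in DESeq2, so the unadjusted number depended on the scaling and method. Zfp521, which encodes a zinc finger transcription factor, had 9 and 13 null counts in proliferating and differentiating cells, against 12, 8 and 29 and 26, 15 and 23 counts in the far deeper WT libraries (log2 difference 5.06, SE 0.526, edgeR adjusted p = 7.53e-18). The lncRNA 4833417C18Rik had 9 and 7 null counts, against 9, 5 and 21 and 20, 13 and 22 counts in WT (log2 difference 4.92, SE 0.588, edgeR adjusted p = 3.05e-13). No list window that was tested was called, but many were not tested for low counts: 266 of 1108 olfactory receptor, 4 of 10 HBO1 complex, 2 of 10 endothelial, 1 of 10 mesenchymal and meningeal and 0 of 39 Hox windows entered the test. In gene bodies 51 of 23336 were higher (0.219%) and 0 lower (0%) by edgeR, with 1711 at an unadjusted p under 0.05 and 84 higher by DESeq2. Of the list members 5 were among them, all higher: Ubb, a ubiquitin gene (4.39 on the log2 scale, edgeR adjusted p = 5.05e-05), the actin genes Acta1 (5.12), Actc1 (4.28) and Acta2 (2.84), and Tubb3, a neuronal tubulin (3.49). They were 1 of 20 housekeeping, 2 of 29 liver, muscle and blood, 1 of 10 mesenchymal and meningeal and 1 of 20 neuronal differentiation bodies tested. All 5, and 41 of the 51 called bodies, belong to the 50 bodies described next, so they are no separate result on the lists.

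A small set of gene bodies took a large part of the null counts. The 50 bodies with the highest null CPM over WT CPM held 9.90% of proliferating and 4.20% of differentiating null counts, against 0.351% to 0.377% in the 6 WT libraries. The input libraries had 0.409% and 0.407% there and the IgG libraries 0.495% and 0.444%. As they were chosen by this ratio, the values are a description. The ratio was 4.04 to 91.4 (median 8.47), and Sv2b (4.04) was the last inside and Jchain (4.01) the first outside. Gene IDs 19791 and 100861531, to which the annotation table pairs no symbol, alone held 5.70% and 2.34% of null counts. Lars2, which encodes the mitochondrial leucyl-tRNA synthetase, had 10473 CPM in proliferating and 5006 CPM in differentiating null cells, against 113 to 128 CPM in the 6 WT libraries. Il6ra, an interleukin-6 receptor gene, had 2778 and 1101 CPM in null cells, against 39.6 to 58.6 CPM in WT. Itprid1 had 3980 and 1469 CPM in null cells, against 126 to 151 CPM in WT, and Cndp1, a carnosine dipeptidase gene, 1514 and 627 CPM, against 35.6 to 44.9 CPM. In all 50 the null value was above every WT library of its stage and higher in proliferating than in differentiating null cells.

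The skeletal and cardiac actin genes Acta1 and Actc1 had 187 and 62.4 CPM and 219 and 84.2 CPM in null cells, against 2.17 to 3.21 and 5.01 to 8.36 CPM in WT. By symbol there were 6 actin, 15 tubulin and 3 Hspa1 heat shock genes. Of these 5, 7 and 2 were among the 8082 bodies with at least 10 null counts, from which the 50 were taken. The 50 held 4 actin genes, 6 tubulin genes (Tubb3 at 12.8 times WT the highest) and the heat shock genes Hspa1b and Hspa1l. A gene can pass the filter on null counts by being high in null cells, so these numbers are a description. Values of single members of such families are uncertain, since how reads shared between members were counted is not given in the sources used here. Nkx1-1, Slfn14 and Htr1a, at 20.8, 15.1 and 14.0 times WT, were other members of the highest 15. Of the 19812 null counts in the 50 bodies, 64 fell in TSS windows, with 9 and 7 of them at 4833417C18Rik in proliferating and differentiating cells. When the 50 were chosen in 1 null library and read in the other, 47 of 50 chosen in proliferating cells were above all WT libraries in differentiating cells, where 26.1% of all candidates were, and 45 of 50 chosen in differentiating cells were so in proliferating cells, where 33.2% were.

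**Figure D5:**
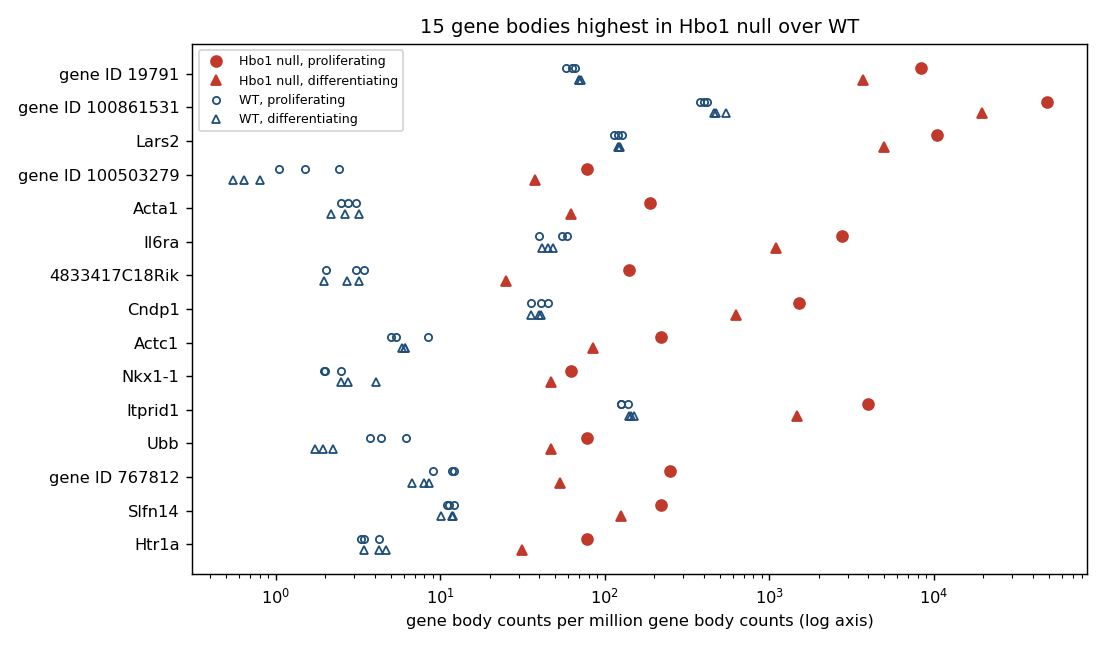
Gene body CPM (x axis, log scale) of the 15 bodies highest in Hbo1 null over WT (y axis); filled red symbols are the Hbo1 null libraries and open blue symbols the WT libraries, circles proliferating and triangles differentiating cells. The null symbols lie right of all WT symbols in every row, and the proliferating one right of the differentiating one.

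Leaving out the 50 bodies changed gene body totals more than windows. In the top bin the null signal was then 1.35 times input (1.17 to 1.54) in proliferating and 1.01 times (0.948 to 1.09) in differentiating cells, against 2.43 and 1.57 times on average in WT. Over both stages 8 bins were then lower in null cells, the top bin by -0.74 (SE 0.151, edgeR adjusted p = 0.00388), and in proliferating cells 9, the top bin by -0.85 (adjusted p = 0.00846). In differentiating cells no bin passed (edgeR, 0 of 10), with -0.63 in the top bin (adjusted p = 0.0654). With autosomal genes and without the 50 bodies, a setting added after these values were seen, 9 bins were lower over both stages, the top bin by -0.94 (SE 0.115, edgeR adjusted p = 4.02e-09), and 4 in differentiating cells, the top bin by -0.75 (edgeR adjusted p = 9.30e-05). Gene body sums of housekeeping genes were 1.75 and 1.26 times input in null cells, against 0.971 and 0.882 times on average in WT. Without the 3 of the 20 that were among the 50 bodies they were 0.937 (0.499 to 1.60) and 0.969 (0.756 to 1.22) times, and the intervals covered the WT means. The same held for mesenchymal and meningeal genes (1 removed) and for liver, muscle and blood genes (2 removed). Hox gene bodies, of which none was removed, had null intervals above the WT mean, at 1.63 (1.02 to 2.47) and 1.16 (0.921 to 1.45) times input in null cells, against 0.541 and 0.768 times in WT and 1.01 and 0.752 times in IgG. Without the 50 bodies, the null interval of neural stem and progenitor gene bodies lay below the WT mean in both stages, at 0.890 (0.736 to 1.07) and 0.909 (0.839 to 0.983) times input, against 1.12 and 1.02 times in WT and 0.958 and 0.923 times in IgG. In proliferating cells it did so too for immediate early genes, at 0.157 times input in null cells (1 count) against 1.57 times in WT. The same was seen for astrocyte genes, at 0.577 (0.307 to 0.987, 13 counts) against 1.02 times, and for endothelial genes, at 0.620 (0.405 to 0.908, 26 counts) against 1.03 times. IgG stood at 0.944 times for astrocyte and 0.993 times for endothelial genes, so WT and IgG were both near input there. In differentiating cells the immediate early, astrocyte and endothelial intervals covered the WT mean. The values were 0.644 against 0.893, 0.942 against 0.952 and 0.906 against 0.967 times.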

How the data were processed

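H3K14ac ChIP-seq counts of 12 NSPC libraries were used. Per the labels and the submitters' processing notes, the authors used bcl2fastq and featureCounts with mm10; versions and the aligner are not given in the sources used here. For each gene ID the authors deposited raw counts in a TSS window of 1 kb and in the gene body, and all 24 sample files equalled the table's columns. No pair of WT libraries agreed within sampling noise. Library size was the gene body total, without TMM. Windows with at least 10 WT plus input counts in the other stage were ranked by WT over input (pseudocount 0.5) into 10 bins. Bin sums were tested with edgeR 4.0.16 (R 4.3.3), 1 mean per group of kind and stage (8 groups, 4 residual degrees of freedom), and single features with a mean count of at least 10 as stage plus genotype in the 6 WT and 2 null libraries. The bin fit used a common dispersion and shared the spread between bins, so its p-values rest on more than these degrees of freedom. Poisson and likelihood intervals (95%) cover counting error only. Tests were checked on simulated data. Alternatives were DESeq2 1.42.0, TMM, window totals, other minimum counts (0 and 30), 5 bins, autosomal genes, no mitochondrial genome, no 50 bodies (at least 10 null counts), and each WT library (for single features each null library too) left out; the single input and IgG libraries were kept. Named windows are the 10 highest by the smaller of both stages' WT over input (at least 100 counts in each stage, with a symbol), the 15 highest gene bodies and 3 members per list, of which some are not reported here. Members, lists and rules were chosen with earlier results of these data known. Promoters with unread bases (1) and those on chromosome 18 were not printed.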

Additional observations from a re-analysis of the deposited data

Results flagged for a closer look

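The gap between Hbo1 null and WT cells differed between the stages in 5 of the 10 bins of TSS windows, by the interaction term of the edgeR fit. The difference of differentiating minus proliferating was 0.67 in bin 3 (adjusted p = 0.0052), 0.39 in bin 4 (adjusted p = 0.0404), 0.66 in bin 5 (adjusted p = 0.0052), 0.74 in bin 6 (adjusted p = 0.0052) and 0.66 in bin 7 (adjusted p = 0.00751), all on the log2 scale. In bin 6 the null library was 0.04 below WT in differentiating cells by the fit, at 1.06 times input against 1.12, 1.03 and 1.12 times in WT. In proliferating cells it was at 0.845 times input in that bin, against 1.44, 1.46 and 1.45 times in WT. Bins 6 and 7 of differentiating cells held 324 and 471 mitochondrial null counts of 1153 and 1238. With autosomal genes 5 bins were called (4, 5, 7, 8 and 9), and with autosomal genes and without the 50 gene bodies 4. With window totals as library size none was (edgeR, 0 of 10). The part of the mitochondrial windows, and of the depth of the null libraries (64071 gene body counts in proliferating and 320601 in differentiating cells), was not tested further, and with 1 null library per stage the stage cannot be told apart from the library.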

How the results depend on the processing

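Of 171 alternative values, 133 were taken as kept. Differences were kept when their direction and their side of the threshold stayed the same. Counts were kept when near the main count, so that 36 gene bodies against 51 passed, and shares when inside the interval of the main share. The permutation test of the score could not reach the threshold in any setting, so for the score only the direction could change. The null minus WT difference in the top bin kept its sign and passed the test in all 18 alternatives, with -0.93 to -0.55 when 1 WT library was left out. The bottom bin (main value -0.21) was -0.25 with a minimum of 30 counts, -0.25 with 5 bins, 0.28 with window totals as library size, and -0.27 to -0.17 with 1 WT library left out. Unlike the main value it passed the test in 5 alternatives: the minimum of 30, the 5 bins and some with 1 WT library left out. Whether the bottom bin was called thus depended on the setting. Null minus input in the top bin (0.13) was -0.00826 with autosomal genes, -0.0377 without the mitochondrial genome, -0.0121 in differentiating cells alone, and 0.04 to 0.27 with 1 WT library left out. Null minus IgG (-0.00) was 0.0468 with a minimum of 30, 0.0855 without the 50 bodies, 0.00726 with autosomal genes and without the 50 bodies, 0.11 with window totals, 0.0135 in differentiating cells alone, and -0.0507 to 0.12 with 1 WT library left out. Bins called (9 of 10) numbered 5 of 5 with 5 bins, 2 with window totals, 3 in differentiating cells alone, and 8 to 10 with 1 WT library left out. Bins that differed between stages (5) numbered 3 with a minimum of 30, 3 with 5 bins, 0 with window totals, and 3 to 6 with 1 WT library left out, the 3 without differentiating WT replicate 3. The score difference (-0.61) was -0.76 to -0.33 with 1 WT library left out. Windows called (2) numbered 6 with no minimum count, and gene bodies (51) 84 with DESeq2 and 36 to 60 with 1 WT or null library left out, 5 of the 60 lower in null cells. The WT-like share of the proliferating profile (60.3%) was 30.3% with autosomal genes, 33.4% without the mitochondrial genome, 32.9% with autosomal genes and without the 50 bodies, and 37.0% to 86.8% with 1 WT library left out. The share of the differentiating profile (33.0%) was -14.7% against IgG, 17.0% with a minimum of 30, 16.4% with autosomal genes, 16.5% with autosomal genes and without the 50 bodies, and -0.2% to 48.0% with 1 WT library left out. The cause of these shifts was not tested. The autosomal and mitochondrial settings of the shares, the minimum of 30 there, the settings without the mitochondrial genome or with 2 choices at once, and those for the difference between stages were chosen after seeing the data. DESeq2, window totals and the fit of 8 libraries give no score, which needs no library size, and the latter no value against input or IgG. No paired analysis was possible because the null condition has 1 library per stage, so null and WT share fewer than 2 replicate numbers.

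The null libraries held 1815 and 9381 window counts in proliferating and differentiating cells, fewer than 1 per window on average, and with 1 null library per stage its own spread is unknown. How many counts a call at a single window would need was not tested.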
